A study of Homo sapiens with 6 samples.

Results

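SNAI2, TWIST1, CD44, FN1, VIM and VCAN, genes known from cells in a mesenchymal state, were followed in SH-SY5Y cells given 1 of 2 inhibitors of protein disulfide isomerase. They were taken by gene symbol from the deposited array values, and all 6 were found, with 9 probe sets in all, among 14884 genes measured by 53617 probe sets. The probe set with the highest mean over the 6 arrays stood for each gene. SH-SY5Y is an established human neuroblastoma line, which limits the data to 1 line in culture. The groups were securinine at 30 µM, 16F16 at 4 µM and mock treatment with methanol, the solvent, each for 24 h with 2 arrays described as biological replicates. All cells, mock included, grew in the same serum-containing medium. How the cultures of a group were separated is not given in the sources used here, so p-values measure the spread between these arrays.

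In epithelial-mesenchymal transition, cells lose their junctions and take on a spindle shape, a matrix of their own and the capacity to move. The zinc finger factor SNAI2 (Slug) and the basic helix-loop-helix factor TWIST1 bind E-boxes in DNA and drive this programme in neural crest cells, from which neuroblastoma descends. Neuroblastoma cells are known in a noradrenergic state, with enzymes of catecholamine synthesis, and in a mesenchymal state with high SNAI2, FN1, VIM and CD44. SH-SY5Y is counted as largely noradrenergic. CD44 is the main cell surface receptor for hyaluronan, fibronectin (FN1) is a matrix glycoprotein that binds integrins, versican (VCAN) is a large matrix proteoglycan that binds hyaluronan, and vimentin (VIM) is the intermediate filament of mesenchymal cells.

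The sequences just before the start sites of VCAN, FN1 and CD44 are shown because these 3 genes differed between the compounds in the tests that follow. A promoter sequence was found for 4 of the 6 genes in the RefSeq tables of build GRCh38.p14. Each line gives the 250 bases upstream of the start site, 5′ to 3′ on the gene's own strand, with motif matches in capitals.
VCAN, chr5:83471494-83471743, plus strand: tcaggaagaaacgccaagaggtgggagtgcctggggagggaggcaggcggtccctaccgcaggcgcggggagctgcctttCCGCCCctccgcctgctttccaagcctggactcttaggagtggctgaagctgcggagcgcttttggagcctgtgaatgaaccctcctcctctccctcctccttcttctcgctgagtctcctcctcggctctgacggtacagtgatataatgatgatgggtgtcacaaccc
FN1, chr2:215436069-215436318, minus strand: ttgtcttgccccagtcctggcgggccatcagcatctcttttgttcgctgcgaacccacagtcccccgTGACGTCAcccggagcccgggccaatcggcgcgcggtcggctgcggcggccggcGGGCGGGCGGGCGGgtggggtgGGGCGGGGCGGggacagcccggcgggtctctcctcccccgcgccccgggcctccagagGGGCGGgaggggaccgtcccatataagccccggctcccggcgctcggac
CD44, chr11:35138921-35139170, plus strand: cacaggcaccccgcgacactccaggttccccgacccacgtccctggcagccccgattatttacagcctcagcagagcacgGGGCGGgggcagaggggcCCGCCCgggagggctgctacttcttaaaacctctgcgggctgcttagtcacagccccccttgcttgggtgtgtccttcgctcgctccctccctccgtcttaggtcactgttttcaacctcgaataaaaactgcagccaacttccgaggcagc
The motifs searched on both strands were the E-box core CANNTG, its subtype CAGGTG, the AP-1 site TGANTCA, the cyclic AMP response element TGACGTCA, TATAAA and the GC box GGGCGG. The cyclic AMP response element was found in the FN1 stretch, from base -183 to base -176 counted from the start site, and 1.65% of 35116 promoter stretches of this length held it. The GC box was found 6 times upstream of FN1, with overlapping matches, 2 times upstream of CD44 and 1 time upstream of VCAN, and 42.6% of the stretches held it. The E-box core was in 61.8% of the stretches, AP-1 in 6.57% and TATAAA in 10.7%, and none of these letters lay in the stretches of VCAN, FN1, CD44 or VIM. A match describes these letters, and binding was not measured.

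Values are log2 expression, so a difference of 1 is a 2-fold change. Array medians over all probe sets were 4.16 to 4.23 on this scale, and lower quartiles 2.79 to 2.84. The probe sets kept for SNAI2, TWIST1, FN1, VIM and VCAN lay above the array median on all 6 arrays. The one for CD44 lay at or below the median on 5 of 6 arrays and above the lower quartile on all 6. No detection call was used here, so a low level could not be told from background by a call. In a bulk sample, more cells of a type and more RNA per cell cannot be told apart.

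**Figure D1:**
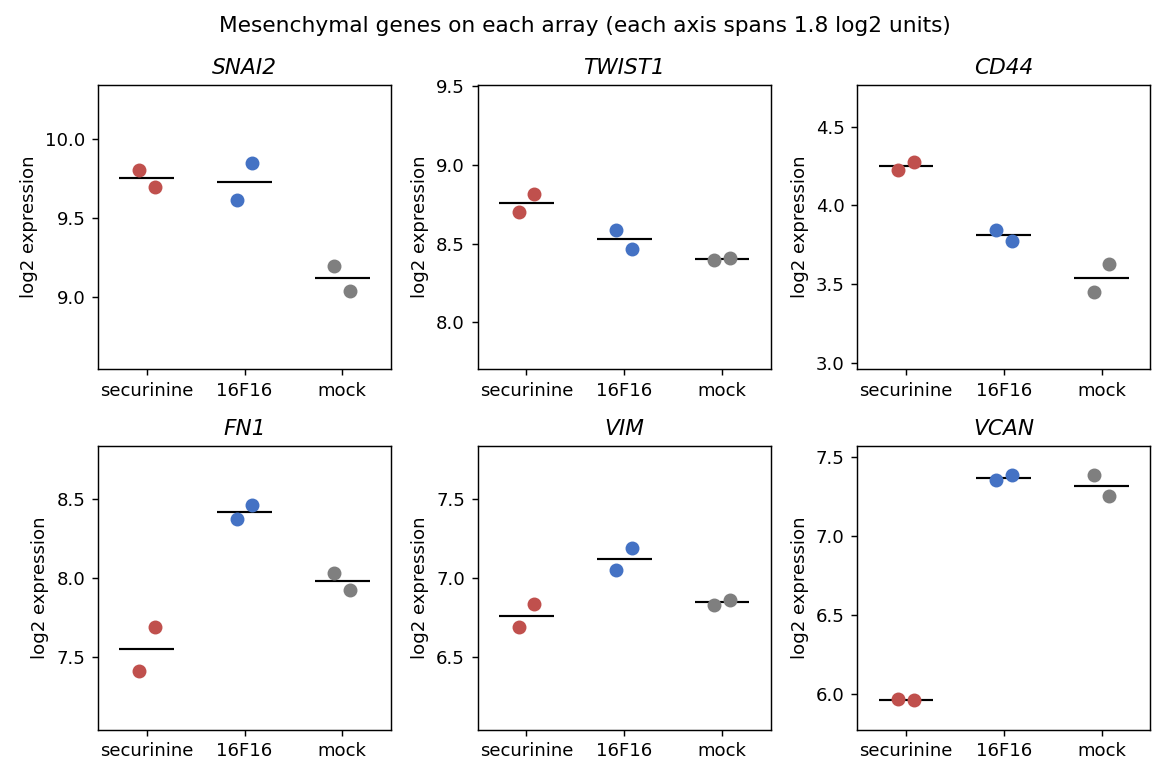
Log2 expression of the 6 genes (vertical axis, 1 panel per gene, each spanning 1.8 log2 units) on the 2 arrays of securinine, 16F16 and mock. Points are arrays and lines are group means; both VCAN points of securinine lie near 5.96 and all 4 others lie at 7.25 or above.

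Securinine was set against mock to ask what the compound changed in these genes. SNAI2, TWIST1 and CD44 rose, VCAN fell, and FN1 and VIM did not pass the test. The test was limma's moderated test across all 14884 genes on the 6 arrays, two-sided, with Benjamini-Hochberg adjustment. Below, called means an adjusted p under 0.05. Each array was also left out in turn. The group outside a comparison enters only the spread and the degrees of freedom, so leaving out an array of it does not change the difference. Any array left out lowers the residual degrees of freedom, so a lost call need not mean that the difference moved. With securinine 4 of the 6 genes were called, against 19.0% of all genes (8.40% higher and 10.6% lower). The arrays of the groups did not overlap for 5 of the 6, against 60.9% of all genes. The median log2 difference of the 6 was 0.14, against -0.04 over all genes, and it averages over rises and a large fall.

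SNAI2 stood at 9.80 and 9.70 with securinine, at 9.61 and 9.85 with 16F16, and at 9.20 and 9.04 in mock. All 4 treated arrays lay above both mock arrays, and the arrays of the compounds overlapped each other. SNAI2 rose by 0.63 ± 0.12 with securinine (log2 difference ± standard error of the fit, n = 2 arrays per group), 1.55-fold, with an adjusted p of 0.0186 in limma. With 16F16 the difference was of like size, 0.61 ± 0.12, and did not pass (adjusted p = 0.0705 in limma). The difference of securinine from 16F16 was 0.02, with a 95% interval of -0.27 to 0.31. The rise with securinine was not called without securinine replicate 1 (adjusted p = 0.101), securinine replicate 2 (0.0704), mock replicate 1 (0.0654) or mock replicate 2 (0.100) in limma, nor when all probe sets were tested (0.0654).

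TWIST1 stood at 8.70 and 8.82 with securinine, at 8.59 and 8.46 with 16F16, and at 8.39 and 8.41 in mock. The groups were ordered securinine, 16F16, mock without overlap, and the 16F16 and mock arrays lay close together. TWIST1 rose by 0.36 ± 0.089 with securinine, 1.28-fold, with an adjusted p of 0.0436 in limma. That call lay near the threshold and was lost when any 1 of the 6 arrays was left out, with log2 differences between 0.30 and 0.42. Without a 16F16 array the difference was unchanged, and only the spread and degrees of freedom of the fit differed. The difference of 16F16 from mock was 0.12 ± 0.089 (adjusted p = 0.477), and that of securinine from 16F16 was 0.23 ± 0.089 (adjusted p = 0.161), so TWIST1 was not shown to differ between the neighbours in that order.

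CD44 stood at 4.22 and 4.28 with securinine, at 3.85 and 3.78 with 16F16, and at 3.45 and 3.63 in mock. The groups again did not overlap, with securinine highest and mock lowest. CD44 rose by 0.71 ± 0.094 with securinine, 1.64-fold, with an adjusted p of 0.00817 in limma. Without securinine replicate 1, securinine replicate 2 or mock replicate 1 the adjusted p in limma lay just past the threshold, at 0.0528, 0.0520 and 0.0535. With 16F16 the difference from mock was 0.27 ± 0.094 (adjusted p = 0.189 in limma), so those neighbours in the order were not shown to differ.

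VCAN stood at 5.97 and 5.96 with securinine, at 7.35 and 7.39 with 16F16, and at 7.38 and 7.25 in mock. The 2 securinine arrays were nearly equal and lay far below the 4 others, while the 16F16 and mock arrays overlapped. VCAN fell by 1.36 ± 0.083 with securinine, 2.56-fold, with an adjusted p of 0.00190 in limma, and was the largest change among the 6 genes. It was called when any 1 of the 6 arrays was left out, with adjusted p between 0.00643 and 0.0281 in limma. With 16F16 the difference from mock was 0.05, with a 95% interval of -0.16 to 0.26. A second probe set for VCAN lay at 1.90 and 1.82 with securinine, 2.66 and 2.67 with 16F16 and 2.19 and 2.76 in mock, at or below the lower quartile on all 6 arrays. Both of its securinine values were below the 4 others, and its difference of -0.62 ± 0.20 from mock did not pass among all probe sets (adjusted p = 0.163 in limma).

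FN1 stood at 7.41 and 7.69 with securinine, at 8.37 and 8.46 with 16F16, and at 8.03 and 7.93 in mock. Both securinine arrays lay below both mock arrays, and both 16F16 arrays lay above them. Neither difference from mock passed in limma, with -0.43 ± 0.12 for securinine (adjusted p = 0.0572) and 0.44 ± 0.12 for 16F16 (adjusted p = 0.123). The difference between the compounds passed, as given with the test of the compounds against each other. The securinine difference was called with the dim genes left out (adjusted p = 0.0460), with arrays centred on their median (0.0487) and with quantile normalization (0.0462), and both differences from mock were called once the variance prior followed intensity.

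VIM stood at 6.69 and 6.84 with securinine, at 7.05 and 7.19 with 16F16, and at 6.83 and 6.86 in mock. The securinine and mock arrays overlapped, and both 16F16 arrays were above the 4 others. The differences from mock were -0.08 ± 0.095 for securinine (adjusted p = 0.602) and 0.28 ± 0.095 for 16F16 (adjusted p = 0.188), and neither passed in limma. Of the other VIM probe sets, one lay at 6.29 and 6.13 with securinine, 6.65 and 6.81 with 16F16 and 6.41 and 6.38 in mock. Another VIM probe set lay at 6.46 and 6.29 with securinine, 6.73 and 6.68 with 16F16 and 6.76 and 6.51 in mock. The 3 probe sets had the securinine mean lowest, and they did not all place 16F16 above mock without overlap.

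16F16 was set against mock for the same question. None of the 6 genes was called in limma, where 1.50% of all genes were called. At an unadjusted p under 0.05 there were 4 of the 6, namely SNAI2, CD44, FN1 and VIM, against 21.1% of all genes, and a variance prior that follows intensity called 2, SNAI2 and FN1. All 6 log2 differences from mock were above 0, with a median of 0.27 against -0.01 over all genes, and that of VCAN turned to -0.01 without mock replicate 2. The arrays did not overlap for 5 of the 6, against 51.7% of all genes. Leaving out any 1 of the 6 arrays, limma also called 0 of the 6 and 0 over all genes, while 1 to 4 of the 6 and 2099 to 2904 over all genes had an unadjusted p under 0.05.

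The compounds were then set against each other, at the doses given, which differed. Securinine cells had lower VCAN and FN1 and higher CD44 than 16F16 cells, 3 of the 6 genes against 9.51% of all genes (3.96% higher and 5.55% lower). The arrays did not overlap for 5 of the 6, all but SNAI2, against 55.8% of all genes. VCAN was lower by -1.41 ± 0.083 on the log2 scale, 2.65-fold, with an adjusted p of 0.00876 in limma. FN1 was lower by -0.87 ± 0.12, 1.82-fold (adjusted p = 0.0186), and CD44 was higher by 0.44 ± 0.094, 1.36-fold (adjusted p = 0.0455). VIM, at -0.36 ± 0.095 (adjusted p = 0.0730), did not pass. The VCAN call was lost without securinine replicate 1 (adjusted p = 0.0772), securinine replicate 2 (0.0595) or 16F16 replicate 1 (0.0611). The FN1 and CD44 calls were lost when any 1 of the 6 arrays was left out, with adjusted p between 0.0501 and 0.0913 for FN1 and between 0.0747 and 0.170 for CD44 in limma.

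**Figure D2:**
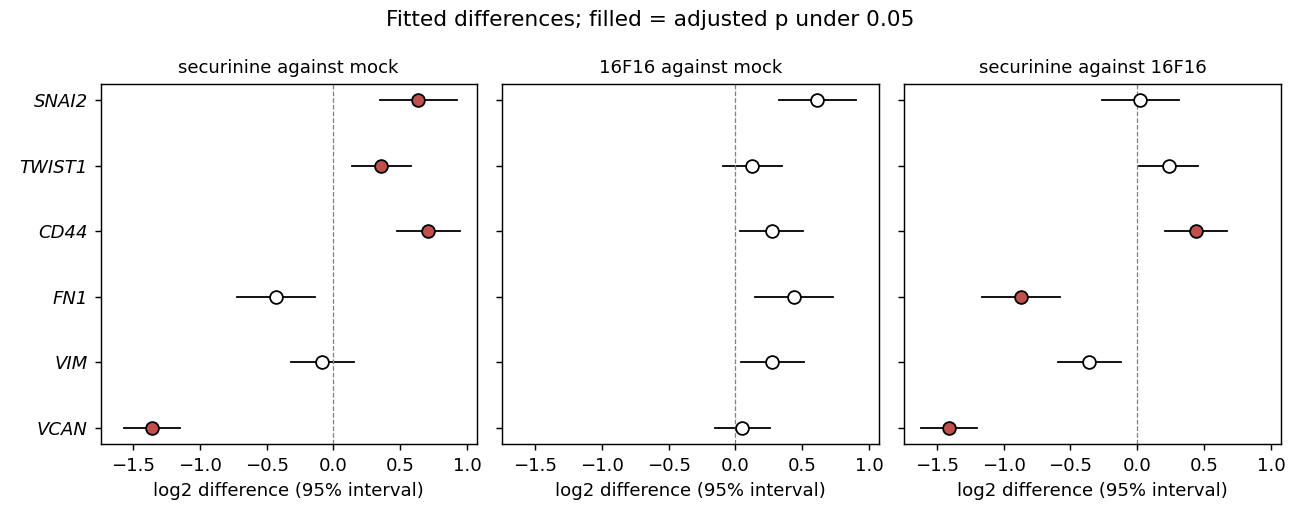
Log2 differences (horizontal axis) of the 6 genes for securinine against mock, 16F16 against mock and securinine against 16F16; bars are 95% intervals of the limma fit and filled points have an adjusted p under 0.05. VCAN lies far left at -1.36 and -1.41 where securinine is on top and at 0.05 for 16F16 against mock, while SNAI2 lies at 0.63 and 0.61 for securinine and 16F16 against mock.

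**Figure D3:**
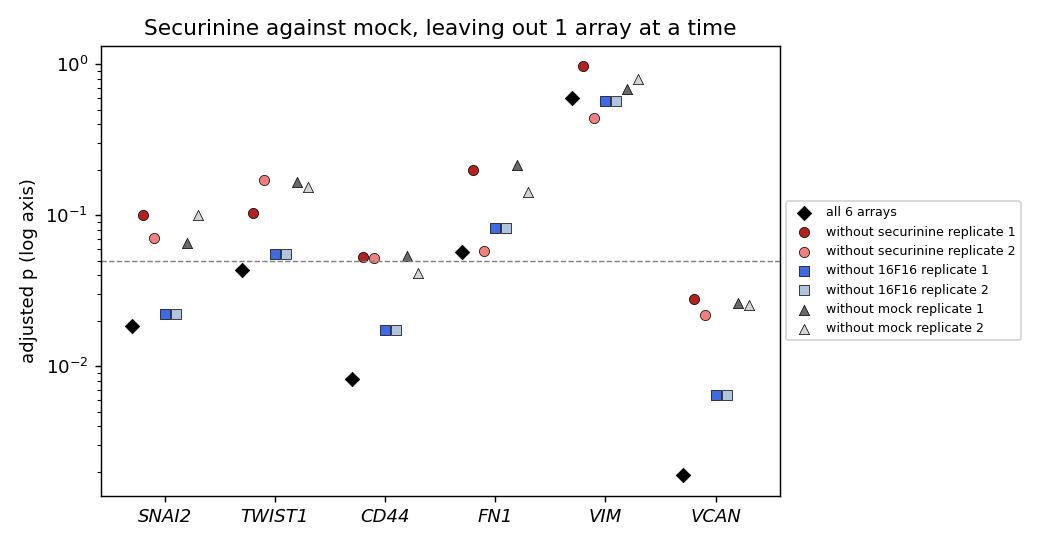
Adjusted p of limma (vertical axis, log scale) for securinine against mock with all 6 arrays and with each array left out; the dashed line marks 0.05. All 7 VCAN points lie under the line, while TWIST1 lies under it with all 6 arrays and above it in the other runs.

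Other transcription factors of epithelial-mesenchymal transition moved both ways with securinine. Of 12 measured, SNAI2 and TWIST1 included, 3 rose and 2 fell, with a median log2 difference of -0.12 against -0.04 over all genes. Without SNAI2 and TWIST1 the called share was 30.0% of 10, against 19.0% of all genes. This list and those below were chosen with earlier results of these data known, so such shares are descriptive and no test. Beside SNAI2 and TWIST1, the related zinc finger factor SNAI1 (Snail) rose by 0.58 ± 0.084. ZEB2, a zinc finger homeobox factor of neural crest cells, fell by 0.45 ± 0.094, and the homeobox factor GSC fell by 0.98 ± 0.25. ZEB1 at -0.25 ± 0.099 and PRRX1, a homeobox factor of mesenchymal neuroblastoma cells, at -0.19 ± 0.074 did not pass. With 16F16 limma called 0 of the 12, while 4 had an unadjusted p under 0.05, against 21.1% of all genes. Among them SNAI1 was at 0.38 ± 0.084 and TWIST2 at -0.41 ± 0.080. The count of 5 with securinine was 0 in limma without securinine replicate 1, securinine replicate 2, mock replicate 1 or mock replicate 2, where 5 to 6 had an unadjusted p under 0.05, and 3 without either 16F16 array.

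Matrix genes that act with fibronectin were lower with securinine where they passed. The list held 25 genes, of which 9 were measured, FN1 included. Of these 9, 4 fell and 0 rose, 44.4% against 19.0% of all genes called either way and 10.6% called lower. The median log2 difference of the 8 genes without FN1 was -0.41, against -0.04 over all genes. LOX, the enzyme that crosslinks collagen and elastin, fell by 1.46 ± 0.089 with securinine and by 0.69 ± 0.089 with 16F16, and the difference between the compounds also passed (-0.77 ± 0.089). Syndecan SDC2, a heparan sulfate proteoglycan of the cell surface, fell by 0.74 ± 0.10, fibrillin FBN1 by 0.68 ± 0.16 and fibulin FBLN1 by 0.39 ± 0.087 with securinine. Tenascin TNC was at -0.01 ± 0.12. With 16F16 fibulin FBLN2 was at -0.72 ± 0.15 without passing. Integrin genes are not analysed here. The LOX call with securinine held in all 6 runs that left out an array, the count of 4 was 2 without securinine replicate 1 or securinine replicate 2 and 1 without mock replicate 1 or mock replicate 2, and with 16F16 the LOX call was lost in each of the 6.

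Among genes listed for their links to CD44, versican or hyaluronan, 1 of 20 rose and 4 fell with securinine, VCAN and CD44 included. Without these members 3 of 18 were called, 16.7% against 19.0% of all genes, a share near that of all genes, and the median log2 difference of -0.035 was also near that of all genes, -0.04. HAPLN3, a link protein that fastens proteoglycans such as versican to hyaluronan, fell by 1.07 ± 0.11, and neurocan (NCAN), a brain proteoglycan related to versican, fell by 0.38 ± 0.080. Ezrin (EZR), which ties CD44 to actin, fell by 0.33 ± 0.080, and the related linker radixin (RDX) was at 0.55 ± 0.17 without passing. The hyaluronan synthases HAS2 and HAS3 were at -0.06 ± 0.11 and 0.12 ± 0.12. With 16F16 limma called 0 of the 20, while 4 had an unadjusted p under 0.05, against 21.1% of all genes. The hyaluronan receptor HMMR was at -0.42 ± 0.096, HAS2 at -0.43 ± 0.11 and HAPLN3 at -0.13 ± 0.11. Both 16F16 values of HAS2, 2.79 and 2.80, lay under the lower quartile of their arrays. VCAN, HAPLN3 and NCAN were each lower with securinine than with 16F16, by -1.41, -0.94 and -0.50 on the log2 scale (adjusted p of 0.00876, 0.0146 and 0.0249 in limma). Between the compounds the HAPLN3 and LOX calls were lost without either securinine or either 16F16 array, and the NCAN call in each of the 6 runs. The HAPLN3 call against mock held in all 6 runs that left out an array, the NCAN call was lost without either securinine or either mock array, and the EZR call was lost in each of the 6 runs. The count of 5 was 2 without securinine replicate 1 or mock replicate 1, and 3 without securinine replicate 2 or mock replicate 2.

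**Figure D4:**
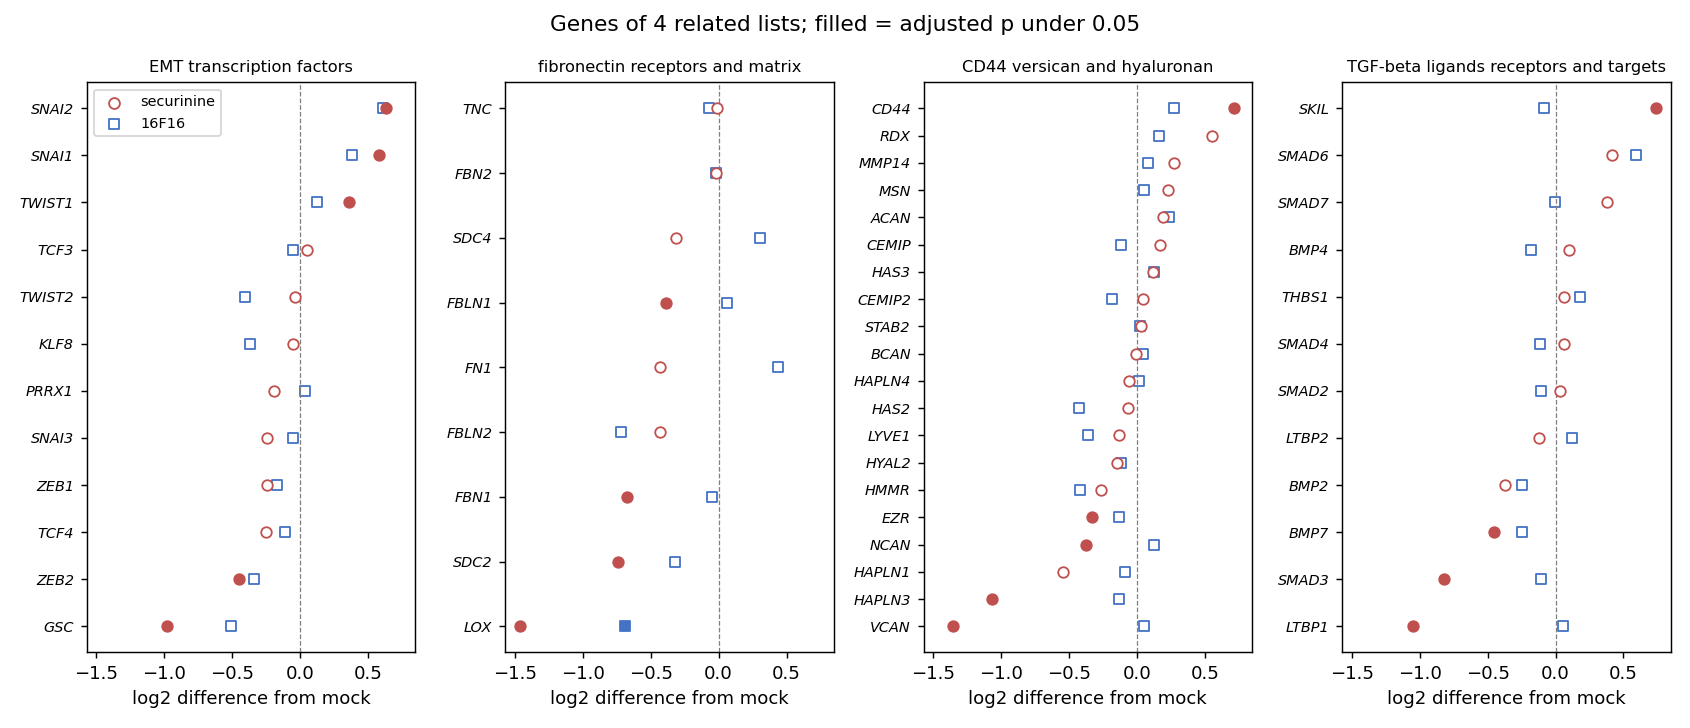
Log2 difference from mock (horizontal axis) of each measured gene in 4 lists, with circles for securinine and squares for 16F16; filled symbols have an adjusted p under 0.05. LOX, VCAN, HAPLN3 and LTBP1 lie at or below -1 with securinine, and LOX has the filled square.

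Genes of TGF-beta signalling, a known inducer of SNAI2, FN1 and VCAN, were measured in part, and the TGF-beta ligands and receptors are not analysed here. Of 12 measured, 1 rose and 3 fell with securinine, 33.3% against 19.0% of all genes, with a median of 0.05 against -0.04 over all genes. SMAD3, which carries the signal to the nucleus, fell by 0.82 ± 0.11, LTBP1, which holds latent TGF-beta in the matrix, fell by 1.05 ± 0.18, and BMP7 fell by 0.45 ± 0.079. SKIL, a repressor of SMAD-driven transcription, rose by 0.74 ± 0.10. With 16F16 limma called 0 of the 12, while 2 had an unadjusted p under 0.05, against 21.1% of all genes. BMP7 was at -0.25 ± 0.079, the inhibitory SMAD6 at 0.60 ± 0.20 and SMAD3 at -0.11 ± 0.11. The count of 4 was 1 without securinine replicate 1, 2 without securinine replicate 2 and 0 in limma without mock replicate 1 or mock replicate 2, where 5 and 4 had an unadjusted p under 0.05.

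Among intermediate filament and lamina genes, related to VIM by family or by linkage, 2 of 12 rose and 0 fell with securinine, VIM included. The called share was 16.7% against 19.0% of all genes, a share near that of all genes, and 18.2% of 11 without VIM. Lamin LMNA, of the nuclear lamina, rose by 1.31 ± 0.11, and nestin NES, a filament of neural progenitors, rose by 0.35 ± 0.089. The LMNA call held in all 6 runs that left out an array, and the NES call was lost in each of them. With 16F16 limma called 0 of the 12, while 4 had an unadjusted p under 0.05, against 21.1% of all genes. VIM was among them, as were LMNA at 0.60 ± 0.11 (adjusted p = 0.0605 in limma) and peripherin PRPH at -0.51 ± 0.15 (adjusted p = 0.150).

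Of 13 measured junction genes, occludin OCLN, a tight junction protein, fell by 1.61 ± 0.18 with securinine, called in all 6 runs that left out an array, and 0 rose. The called share was 7.69%, under the 19.0% of all genes. TJP1, a scaffold protein of tight junctions, was at 0.28 ± 0.080 (adjusted p = 0.0635 in limma), with both securinine arrays above both mock arrays, and CRB3, a polarity protein, at -0.23 ± 0.13. With 16F16 OCLN was at -0.87 ± 0.18 without passing (adjusted p = 0.0744 in limma). There limma called 0 of the 13, while 1 had an unadjusted p under 0.05, against 21.1% of all genes. EPCAM was at -0.19 ± 0.12 and -0.03 ± 0.12 with securinine and 16F16. Classical cadherins are not analysed here.

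A wider list of 27 measured genes of the mesenchymal neuroblastoma state, with SNAI2, TWIST1, CD44, FN1 and VIM among them, had 7 that rose and 2 that fell with securinine. Without these 5 members 6 of 22 were called, 27.3% against 19.0% of all genes. Its median log2 difference was 0.10, against -0.04 over all genes. The AP-1 subunits FOSL1 and FOSL2 rose by 2.51 ± 0.25 and 0.56 ± 0.080, TIMP1, an inhibitor of matrix metalloproteinases, by 0.87 ± 0.10 and MEF2D by 0.61 ± 0.092. The stem cell marker PROM1 fell by 1.01 ± 0.13 and the receptor NOTCH3 by 0.71 ± 0.14. With 16F16 TIMP1 rose by 0.65 ± 0.10 (adjusted p = 0.0498 in limma), and that call was lost when any 1 of the 6 arrays was left out. The AP-1 subunit JUN was at -0.58 ± 0.095 with 16F16 without passing (adjusted p = 0.0558 in limma). Of the 9 calls with securinine, FOSL1 and TIMP1 held in all 6 runs that left out an array, and the count was 3 without securinine replicate 1 or mock replicate 1, 4 without mock replicate 2 and 5 without securinine replicate 2.

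The labelled cell type was checked against markers. All 19 measured noradrenergic genes lay above the array median on all 6 arrays. Their mean log2 value was 8.68 and 8.78 with securinine, 8.93 and 8.90 with 16F16, and 9.33 and 9.36 in mock. With securinine 1 of them rose and 9 fell, 52.6% of the 19 against 19.0% of all genes. With 16F16 0 of them rose and 6 fell, 31.6% against 1.50% of all genes. This list too was chosen with earlier results known, and all genes include dim ones, so these shares are no test. These values moved beside the changes of the 6 genes, and their part in those changes was not tested. With 16F16 the count of 6 was 0 in limma when any 1 of the 6 arrays was left out, with 7 to 10 at an unadjusted p under 0.05, and with securinine the count of 10 was 6 without securinine replicate 1, mock replicate 1 or mock replicate 2.

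Markers of other cell types were measured in part. Of 3 fibroblast markers, THY1, which neurons also carry, fell by 0.46 ± 0.098 with securinine, and decorin (DCN) lay at or below the lower quartile on all 6 arrays. Lumican (LUM) stood at 6.24 and 6.26 with securinine, at 5.78 and 5.81 with 16F16, and at 6.11 and 6.35 in mock, above the array median on all 6 arrays. Its differences from mock were 0.02 ± 0.10 with securinine and -0.44 ± 0.10 with 16F16, and neither passed (adjusted p of 0.927 and 0.0973 in limma). The mean log2 value of the 3 was 4.92 and 4.97 with securinine, 5.00 and 4.95 with 16F16, and 5.08 and 5.12 in mock. With securinine 0 of 4 glial markers were called in limma, and 1, S100B at -0.63 ± 0.21, had an unadjusted p under 0.05. Of the 4 glial markers, 2, SOX10 and GFAP, lay above the array median on all 6 arrays. The means of the 4 were 4.51 and 4.49 with securinine, 4.71 and 4.55 with 16F16, and 4.69 and 4.71 in mock. Of 5 blood and endothelial markers, 0 lay above the array median on all 6 arrays. CD14 rose by 0.57 ± 0.14 with securinine, and PECAM1 was at -0.54 ± 0.19 without passing (adjusted p = 0.109 in limma). PECAM1 values lay at or below the lower quartile on 3 of 6 arrays. The mean of the 5 was 3.91 and 3.63 with securinine, 3.79 and 3.82 with 16F16, and 3.57 and 3.73 in mock. The THY1 and CD14 calls were lost without either securinine array or either mock array. The part of other cell types in the changes of the 6 genes was not tested.

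The genes most like SNAI2 over the 6 arrays were sought among 2534 brighter protein-coding genes that varied by at least 0.5 on the log2 scale. They were TTC13, the Hedgehog co-receptor CDON, the inositol phosphate kinase ITPKB, TMEM179B and the acyltransferase LPCAT1, with Pearson correlations of 0.977 to 0.985. CDON stood at 8.73 and 8.68 with securinine, at 8.67 and 8.72 with 16F16, and at 8.22 and 8.14 in mock. Those most like FN1 were ZNF878, FNDC4, PABIR2, MSH5 and the fatty acid elongase ELOVL6, at 0.981 to 0.995. ELOVL6 stood at 7.38 and 7.43 with securinine, at 7.93 and 7.92 with 16F16, and at 7.73 and 7.63 in mock. These correlations describe 6 arrays of 3 groups and carry no test.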

How the data were processed

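Total RNA of 6 SH-SY5Y samples was hybridised to Affymetrix Human Gene 2.0 ST arrays. The authors deposited log2 expression values per probe set. The submitters' processing notes list RMA and limma with neither role nor version, and the values lie on the scale RMA gives. RMA puts the arrays on a common scale, so values are relative and a shift common to most genes would not be seen. Of 53617 probe sets, 16098 had 1 gene symbol, 0 several and 37519 were unnamed in the platform table. All 16098 matched by Entrez identifier to RefSeq genes of GRCh38.p14.

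Differences were tested with limma 3.58.1 in R 4.3.3 (lmFit and eBayes, group as the only term, all 6 arrays, 3 residual and 2.68 prior degrees of freedom). P-values were adjusted by the Benjamini-Hochberg method over 14884 genes. Precision is limited by the number of arrays, with a median standard error of 0.11 for a difference. The 6 genes and the 11 gene lists (207 genes, 129 measured) were chosen with earlier results of these data known. Genes named from a list were taken from those called and up to 4 with the lowest adjusted p with securinine and 2 with 16F16. ZEB1, PRRX1, TNC, RDX and HAS3 fall outside that rule and were named after their values were seen. The 5 genes most like SNAI2 and FN1 were those with the highest Pearson correlation. The alternatives varied the probe set, the features tested, a filter on dim genes, the normalization, the arrays fitted, the variance prior, a replicate block and each array.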

Additional observations from a re-analysis of the deposited data

How the results depend on the processing

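Each result was recomputed under 14 alternatives, of which 6 left out 1 array each. For a given comparison these are not all distinct. Leaving out either array of the third group and fitting only the arrays compared are the same fit. VCAN with securinine kept its fall and its call in all 14. With all probe sets tested, 2 of the 6 genes were called with securinine, and SNAI2 (0.63) and TWIST1 (0.36) were not, nor were CD44 (0.44), FN1 (-0.87) or VCAN (-1.41) between the compounds, where 0 of the 6 genes and 0 probe sets were called. For 16F16 against mock 0 probe sets were called with all probe sets tested, and the count of 223 genes was 418 with dim genes left out, 0 with only the arrays of the groups compared, and 1808 with an intensity trend. The trend called 2 of the 6 genes with 16F16, SNAI2 (0.61) and FN1 (0.44), and FN1 with securinine (-0.43). Between the compounds it called 3107 genes against 1416, with TWIST1 (0.23) and VIM (-0.36) called and CD44 (0.44) not. TWIST1 with securinine was not called with arrays centred on their median (0.33), quantile normalization (0.31) or only the arrays compared (0.36). FN1 with securinine was called with dim genes left out (-0.43), centring (-0.46) and quantile normalization (-0.46). CD44 between the compounds was not called with centring (0.41), quantile normalization (0.41) or only the arrays compared (0.44), and that last fit gave 324 genes, 1 of the 6 genes and FN1 (-0.87) not called. The mean of the VIM probe sets was called between the compounds (-0.40). SNAI2 between the compounds turned with centring (-0.0091) and quantile normalization (-0.0437), far from the threshold in each. Of the 129 measured list genes, 39 were called with securinine, 8 with 16F16 and 24 between the compounds. The called shares over all genes were 19.0%, 1.50% and 9.51%, in that order. With all probe sets the list gene counts were 23, 0 and 0. With only the arrays compared they were 0 with 16F16 and 6 between the compounds, and with the trend 25 with 16F16 and 39 between the compounds. The cause of these changes was not tested.

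The arrays share replicate numbers across groups. Deviations of same-numbered arrays correlated at -0.05 (securinine and 16F16), -0.03 (securinine and mock) and 0.04 (16F16 and mock). The labels do not say whether same-numbered arrays shared a culture round. These correlations cannot settle it, since each group gives a single deviation per gene. With the replicate block TWIST1 with securinine (0.36) and CD44 between the compounds (0.44) were not called, 0 genes and 0 list genes were called with 16F16, and 503 genes and 14 list genes between the compounds. With 16F16 limma also called 0 with all probe sets tested, where 7250 of 53617 probe sets had an unadjusted p under 0.05. It called 0 with only the arrays compared, where 2904 of 14884 genes had one.

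Leaving out 1 array gave 629 to 2462 genes, 1 to 3 of the 6 genes and 14 to 34 list genes with securinine, 0 of each with 16F16, and 0 to 324 genes, 0 to 1 of the 6 and 0 to 6 list genes between the compounds. Log2 differences with securinine ranged over 0.55 to 0.71 for SNAI2, 0.30 to 0.42 for TWIST1, 0.62 to 0.80 for CD44, -0.57 to -0.29 for FN1, -0.16 to -0.0099 for VIM and -1.42 to -1.29 for VCAN. With 16F16 they were 0.49 to 0.73 for SNAI2, 0.06 to 0.19 for TWIST1, 0.18 to 0.36 for CD44, 0.38 to 0.49 for FN1, 0.21 to 0.34 for VIM and -0.0148 to 0.12 for VCAN, which turned without mock replicate 2. Between the compounds they were -0.0973 to 0.14 for SNAI2, which turned without securinine replicate 1 (-0.0309) or 16F16 replicate 1 (-0.0973), 0.17 to 0.30 for TWIST1, 0.40 to 0.47 for CD44, -1.01 to -0.73 for FN1, -0.43 to -0.29 for VIM and -1.42 to -1.39 for VCAN.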
